A study of Mus musculus with 8 samples.

Results

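The collagen genes of the mouse spinal dorsal horn were taken as every gene with a GENCODE M21 symbol of the form Col, number, a, number that is annotated as protein-coding, which gave 44 of the 49585 genes in the deposited tables. They fell into 11 fibrillar collagens, 6 basement membrane collagens (type IV) and 27 other collagens. Each was measured by RNA-seq in 8 libraries of the lumbar dorsal horn, the part of the spinal cord that receives touch and pain input. The tissue came from adult C57BL/6J mice, 4 miR-96 knock-out (KO) libraries and 4 wild-type (WT) libraries, and the series description gives 4 mice per genotype. The title of the series concerns miR-96, voltage-gated sodium channels and allodynia, which is pain from touch that is normally harmless. The labels name the genotype as a knock-out and no allele, Cre driver or treatment, and none names a collagen gene as targeted.

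Collagens are secreted proteins of 3 chains wound into a triple helix, and each chain has its own gene. Fibrillar collagens pack into the fibrils of meninges, nerve sheaths and vessel walls, type IV collagens form the sheet-like network of basement membranes under endothelium and around the cord, and the other collagens coat fibrils, link them to membranes or stand in the cell membrane. In the central nervous system fibroblasts of the meninges and perivascular spaces are known as a main source of type I and III collagen, and vascular cells of type IV, while a few collagens are made by neurons or glia.

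The targeted gene, Mir96, was listed at 0 FPKM in all 8 libraries. FPKM is fragments per kilobase of transcript, normalised to the mapped fragments of each library, so it can be compared between genes of different length. A polyA library does not measure mature microRNAs, so that value does not check the genotype labels. Depth estimated from the steps of low FPKM values was 31800000 to 42900000 fragments per library. Markers of the labelled tissue were abundant: the summed FPKM of 10 dorsal horn neuron markers was 1355 to 1482 in KO and 1287 to 1588 in WT libraries, led by Snap25, Rbfox3 and Slc17a6. That of 4 astrocyte markers (led by Slc1a2, Gfap and Aqp4) was 1732 to 1934 in KO and 1557 to 1877 in WT. The labels number the libraries without tying each to a mouse, so the p-values here measure the spread between these libraries.

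The sequence through which miR-96 could meet a collagen transcript is shown first. A microRNA pairs mainly through its seed, bases 2 to 8 from its 5′ end, with matching letters in the 3′ untranslated region (UTR) of a messenger RNA. The mature miR-96-5p is given with its seed in capitals (RefSeq, GRCm38.p6, chr6:30169506-30169528, minus strand).
mmu-miR-96-5p: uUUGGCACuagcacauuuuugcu
The longest annotated 3′ UTR of each gene was searched on its own strand for GTGCCAA, the reverse complement of the seed, and for TGCCAAA, which pairs with bases 2 to 7 and has an A opposite base 1. The 2 overlap where both stand together in GTGCCAAA, which is then counted as 1 site. Of 44 collagens, 11 held a match (25.0%). Among tested genes, 8 of 32 collagens (25.0%) held one, against 2671 of 13050 genes with a 3′ UTR of at least 50 nt (20.5%). The full 8-base form stood in 1 tested collagen, Col13a1, which is 3.12% of them and the same share as among all tested genes. The sites below are those in Col13a1, the 3 fibrillar genes with a match (Col5a1 has 2) and Col25a1, the most abundant non-fibrillar gene with one. Capitals mark the match, and all are on GRCm38.
Col13a1 (chr10:61838393-61838422, minus strand): attgtgttccaGTGCCAAAgggggcccacc
Col5a1 site 1 (chr2:28038359-28038387, plus strand): tctctgtgtgtGTGCCAAgatggaatgga
Col5a1 site 2 (chr2:28038839-28038867, plus strand): agttctactctTGCCAAAgaaatgcctgg
Col27a1 (chr4:63334521-63334549, plus strand): ctttcccatagGTGCCAAtttgggtgggg
Col11a2 (chr17:34066177-34066205, plus strand): aaagagagaaaTGCCAAAaatcccagcag
Col25a1 (chr3:130599370-130599398, plus strand): tatttttatatTGCCAAAaactcacataa
The tested collagens with a match had a median log2 fold change, KO minus WT, of 0.15, and 7 of 8 had the higher mean in KO. The 24 tested collagens without a match had a median of 0.16, and 18 of them were higher in KO. Over all tested genes the medians were 0.061 with a match and -0.0045 without, with 1724 of 2671 and 5090 of 10379 higher in KO. Whether genes with and without a match differ in 3′ UTR length or level was not tested. Collagen 3′ UTRs were somewhat shorter, with a median of 1032 nt against 1246 nt for all tested genes. A match is a description of letters and not a shown site of binding.

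The genotypes were compared on log2(FPKM + 1) with limma over all 15061 genes with a mean of at least 1 FPKM. On this scale the fold change of low genes is understated. Of the 44 collagens 32 were tested: all 11 fibrillar, 3 of 6 basement membrane and 18 of 27 other collagens. None passed a limma adjusted p of 0.05, and neither did any other gene (0 of 15061, 0%). With estimated library weights, an alternative fit, 5 collagens (15.6%) and 1627 of all tested genes (10.8%) passed it. In the main fit, without weights, no collagen had an unadjusted limma p under 0.05 either, against 831 of all tested genes (5.52%). The lowest unadjusted limma p was 0.0624, that of Col20a1, and the adjusted p ran from 0.620 to 0.997. The mean was higher in KO for 25 of 32 collagens, against 7999 of all tested genes (53.1%). By class these were 9 of 11 fibrillar, 3 of 3 basement membrane and 13 of 18 other collagens. The median log2 fold change was 0.20, 0.11 and 0.11 in those classes, and 0.014 over all tested genes. No collagen had all 4 KO libraries above all 4 WT libraries (1.91% of all tested genes did) and none had them all below (1.12% did). These sizes moved in both directions when single libraries were left out. Without miR-96 KO 1 the median was 0.052 for fibrillar, 0.12 for basement membrane and 0.028 for other collagens. In that fit 24 of 32 means were higher in KO, against 52.3% of all tested genes. Without WT 2 the medians were 0.14, 0.078 and -0.0090, with 19 of 32 (51.9% of all tested genes). The count rose to 30 of 32 without WT 1 (50.4%), 29 without WT 4 (53.0%) and 28 without miR-96 KO 2 (53.9%). The basement membrane median stayed at 0.078 to 0.19 over all single libraries left out. Without WT 4, 5 collagens had an unadjusted limma p under 0.05 (Col11a1, Col4a2, Col20a1, Col24a1 and Col25a1, all higher in KO) and none passed the adjusted threshold. That is 15.6% of the tested collagens, against 3151 of all tested genes (20.9%) in the same fit. The width of the intervals limits what these 8 libraries can show. On the scale of FPKM + 1, the 95% interval lay within a 2-fold change either way for 31 of 32 collagens, the exception being Col11a1. It lay within 1.5-fold for 17 of 32. For low genes these bounds do not limit the change in FPKM itself to the same size.

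**Figure D1:**
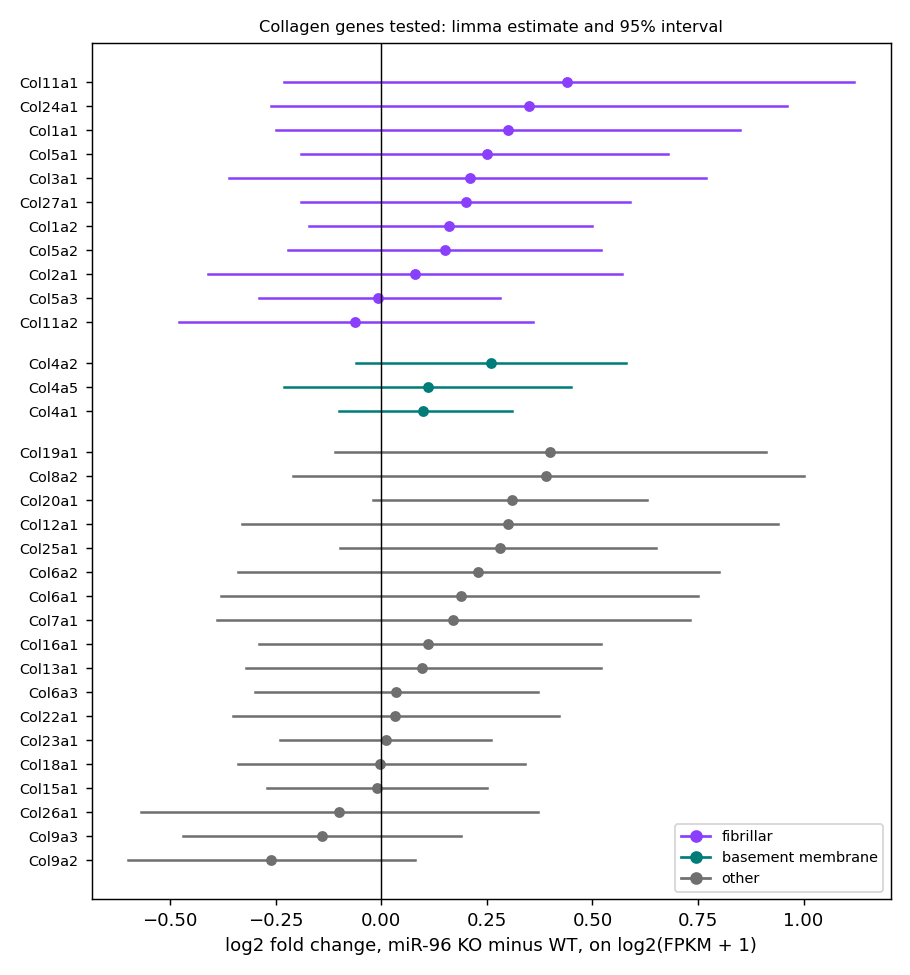
Log2 fold change (miR-96 KO minus WT, on the log2(FPKM + 1) scale) of the 32 tested collagens with the limma 95% interval as bars, grouped by class. Most points lie right of 0, every bar crosses 0, and Col11a1 has the upper bound farthest to the right, at 1.12.

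Per unit of length, the most abundant collagen transcript was a minor chain of fibrils, best known from cartilage, Col11a1, with a mean of 33.5 FPKM over the 8 libraries, above 74.7% of tested genes. It was followed by Col4a2 (26.1 FPKM), Col1a2 (25.9), Col16a1 (23.5), Col4a1 (21.7) and Col11a2 (21.4). Then came Col6a1 (14.3), Col25a1 (13.7), Col1a1 (12.9), Col9a2 (12.4), Col9a3 (12.0), Col23a1 (10.4) and Col15a1 (10.0). The steps between neighbours in this order were smaller than the SD between libraries of one genotype for most of these genes, so that order is loose. The genes listed here therefore mixed chains of skin and bone fibrils (type I), of basement membrane (type IV) and of cartilage (types IX and XI). Genes listed as markers of cartilage and bone cells were in part detected, which alone does not show that such cells were present. The proteoglycan Acan averaged 7.26 ± 0.411 FPKM in KO and 6.40 ± 1.65 in WT (SD, n = 4 each). The bone matrix gene Dmp1 averaged 4.58 ± 0.499 in KO and 3.84 ± 0.603 in WT, and Comp 1.81 ± 1.47 in KO and 1.54 ± 1.05 in WT (SD, n = 4 each). Over the 8 libraries Cnmd and Sp7 averaged 0.676 and 0.524 FPKM, and Matn1, Matn3, Bglap and Ibsp 0.0796, 0.0229, 0.0642 and 0.0198 FPKM. Matn3 was at 0 in miR-96 KO 1, Bglap in miR-96 KO 3, WT 1 and WT 2, and Ibsp in miR-96 KO 2 and miR-96 KO 3. Of 9 such markers 3 were tested (Acan, Dmp1 and Comp), none with an unadjusted limma p under 0.05, and the summed FPKM of all 9 was 14.2 to 16.9 in KO and 9.41 to 15.6 in WT libraries. Their part in the collagen values was not tested.

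**Figure D2:**
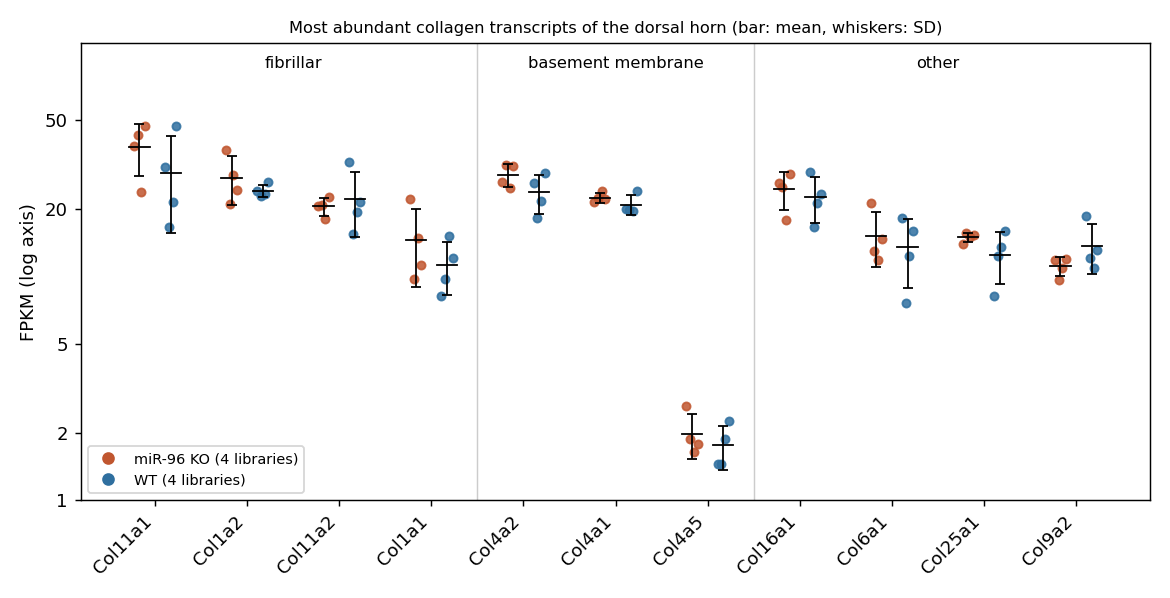
FPKM on a logarithmic axis of the most abundant tested collagens of each class (4 fibrillar, 3 basement membrane, 4 other), with 1 point per library, miR-96 KO left of WT, a bar at the mean and whiskers for the SD. Col4a5 lies far below the others at 1.45 to 2.63 FPKM, and the points of both genotypes overlap for each gene.

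Among the fibrillar collagens, Col11a1 (ENSMUSG00000027966, chromosome 3, 114030540 to 114220718) encodes a chain of type XI collagen, which lies inside thin fibrils and limits their width. It had 38.4, 42.8, 23.9 and 46.8 FPKM in miR-96 KO 1 to 4, against 30.8, 16.7, 21.5 and 46.9 FPKM in WT 1 to 4. The KO mean was 38.0 ± 9.98 and the WT mean 29.0 ± 13.3 FPKM (SD, n = 4 each). The log2 fold change was 0.44 (SE 0.30, limma adjusted p = 0.622), with a 95% interval of -0.23 to 1.12. The low values were in 1 KO and 2 WT libraries and the highest single value was a WT one, so the groups overlapped across nearly their whole range. Its partner Col11a2 (ENSMUSG00000024330, chromosome 17, 34039437 to 34066685) had 20.7, 20.8, 18.1 and 22.6 FPKM in miR-96 KO 1 to 4, against 32.3, 15.4, 19.4 and 21.6 FPKM in WT 1 to 4. The 4 KO libraries lay within the span set by WT 2 and WT 1. Its log2 fold change was -0.062 (SE 0.19, limma adjusted p = 0.902), and it turned to 0.13 without WT 1.

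The type I chains build the most common fibril of skin, tendon and meninges. Col1a2 (ENSMUSG00000029661, chromosome 6, 4504814 to 4541544) had 36.7, 21.1, 28.5 and 24.3 FPKM in miR-96 KO 1 to 4, against 24.0, 22.8, 23.4 and 26.3 FPKM in WT 1 to 4. Its log2 fold change was 0.16 (SE 0.15, limma adjusted p = 0.660). Col1a1 (ENSMUSG00000001506, chromosome 11, 94936224 to 94953042) had 22.1, 9.77, 14.9 and 11.2 FPKM in miR-96 KO 1 to 4, against 8.17, 9.77, 15.1 and 12.1 FPKM in WT 1 to 4. In both genes miR-96 KO 1 stood above the other 7 libraries, which mixed without regard to genotype. The log2 fold change of Col1a1 was 0.30 (SE 0.25, limma adjusted p = 0.636), and with both miR-96 KO 1 and WT 1 left out it was -0.043. Col3a1, the type III chain that shares fibrils with type I in elastic tissue, had 14.0, 5.89, 10.8 and 6.86 FPKM in miR-96 KO 1 to 4, against 6.59, 6.45, 10.9 and 6.98 FPKM in WT 1 to 4. Here miR-96 KO 1 was again the highest, followed by 1 library of each genotype (WT 3 and miR-96 KO 3) at nearly the same level. Its log2 fold change was 0.21 (SE 0.25, limma adjusted p = 0.735).

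The remaining 6 fibrillar genes were lower, with means over the 8 libraries of 2.82 to 6.08 FPKM. They were Col27a1 and Col24a1, fibrillar chains known from cartilage and bone, the type V chains Col5a1, Col5a2 and Col5a3, which start and thin type I fibrils, and Col2a1, the main fibril chain of cartilage. Their log2 fold changes ran from -0.0087 (Col5a3) to 0.35 (Col24a1), and 5 of 6 had the higher mean in KO. Col24a1 averaged 6.59 ± 2.11 FPKM in KO and 4.97 ± 2.10 FPKM in WT (SD, n = 4 each), with SE 0.27 and limma adjusted p = 0.632. Summed over all 11 fibrillar genes, FPKM was 167, 129.6, 119.8 and 143 in miR-96 KO 1 to 4, against 132, 90.3, 112 and 146 in WT 1 to 4. The highest sum was miR-96 KO 1 and the lowest WT 2, and the other 6 libraries overlapped.

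The basement membrane chains Col4a1 and Col4a2 form the trimer found in nearly every basement membrane, including that of brain and cord vessels. Col4a2 (ENSMUSG00000031503, chromosome 8, 11312805 to 11449287) had 26.4, 31.5, 24.9 and 31.0 FPKM in miR-96 KO 1 to 4, against 26.2, 18.3, 21.7 and 28.9 FPKM in WT 1 to 4. WT 2 and WT 3 lay below all KO libraries, and WT 1 and WT 4 among them. Its log2 fold change was 0.26 (SE 0.14, limma adjusted p = 0.620). Col4a1 (ENSMUSG00000031502, chromosome 8, 11198423 to 11312826) had 21.4, 22.3, 24.1 and 22.2 FPKM in miR-96 KO 1 to 4, against 20.1, 19.8, 19.7 and 24.2 FPKM in WT 1 to 4. Its 3 lowest WT libraries were below all KO libraries, but WT 4 was the highest of all 8. The log2 fold change was 0.10 (SE 0.092, limma adjusted p = 0.654), the smallest SE of any tested collagen. Col4a5, a chain of the kidney, lung and eye networks, had 2.63, 1.87, 1.64 and 1.78 FPKM in miR-96 KO 1 to 4, against 1.45, 1.45, 1.88 and 2.25 FPKM in WT 1 to 4. The groups overlapped, with miR-96 KO 1 highest, and its log2 fold change was 0.11 (SE 0.15, limma adjusted p = 0.762). Col4a3, Col4a4 and Col4a6 were under the filter, with means of 0.232, 0.208 and 0.569 FPKM.

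The 6 type IV genes stand in 3 head-to-head pairs, each pair read outwards from a common start region. In the annotation Col4a1 and Col4a2 overlap by 22 bases at their starts on GRCm38. Their RefSeq promoter windows, 250 bases before to 50 after each start, share 78 bases (GRCm38.p6, chromosome 8, 11312777 to 11312854). Searched on both strands, the Col4a1 window held 1 CCAAT and 1 GGGCGG, and the Col4a2 window 1 CCAAT and 3 GGGCGG. The GGGCGG of the Col4a1 window lies in the shared bases and is also 1 of the 3 in the Col4a2 window. The first motif, CCAAT, stood in 37.4% and GGGCGG in 35.7% of all 32851 promoter windows in the table. Of the 38 windows of collagen genes, 34.2% held CCAAT and 60.5% GGGCGG. The 2 genes of this pair had similar levels, Col4a2 being 1.20-fold above Col4a1 over the 8 libraries. Col4a4 and Col4a3 start 71 bases apart and were both low, at a ratio of 1.11 (Col4a3 to Col4a4). Col4a6 and Col4a5 start 1308 bases apart, and Col4a5 was 3.28-fold above Col4a6.

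Among the other collagens, Col16a1 (ENSMUSG00000040690, chromosome 4, 130047840 to 130099283) was the most abundant. It belongs to the FACITs, collagens with an interrupted helix that sit on the surface of fibrils. It had 26.1, 25.1, 17.9 and 28.8 FPKM in miR-96 KO 1 to 4, against 29.3, 16.7, 21.2 and 23.3 FPKM in WT 1 to 4. The highest and the lowest library were both WT, and its log2 fold change was 0.11 (SE 0.18, limma adjusted p = 0.797). Col9a2 (ENSMUSG00000028626, chromosome 4, 121039385 to 121055322), a chain of type IX collagen on cartilage fibrils, was the collagen with the lowest fold change. It had 11.8, 9.65, 10.9 and 12.0 FPKM in miR-96 KO 1 to 4, against 18.6, 12.1, 10.9 and 13.1 FPKM in WT 1 to 4. WT 1 stood far above the other 7 libraries, and the log2 fold change was -0.26 (SE 0.15, limma adjusted p = 0.620). Its partner Col9a3 had the same order of genotypes, with 11.3 ± 1.16 FPKM in KO and 12.7 ± 3.07 FPKM in WT (SD, n = 4 each), and WT 1 was again the highest.

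Col20a1, a FACIT known from chick embryonic tissues, had the lowest p of all collagens and is given here for that reason, after its values were seen. It had 2.50, 2.77, 2.81 and 2.86 FPKM in miR-96 KO 1 to 4, against 2.06, 1.82, 1.49 and 2.87 FPKM in WT 1 to 4. The 4 KO libraries were close together and above 3 of the WT libraries, while WT 4 was level with the highest KO library. The log2 fold change was 0.31 (SE 0.15, limma adjusted p = 0.620). The other FACITs tested were Col12a1, on fibrils of tendon and fascia, Col19a1, made by a subset of neurons in brain, and Col22a1, of tissue junctions. Their log2 fold changes were 0.30, 0.40 and 0.032.

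Col6a1 (ENSMUSG00000001119, chromosome 10, 76708792 to 76726168) encodes a chain of type VI collagen, which forms beaded filaments around cells. It had 21.2, 13.0, 11.8 and 14.7 FPKM in miR-96 KO 1 to 4, against 18.2, 7.58, 12.3 and 15.9 FPKM in WT 1 to 4. The high and the low libraries came from both genotypes, and the log2 fold change was 0.19 (SE 0.25, limma adjusted p = 0.760). Its partners Col6a2 and Col6a3 averaged 4.07 and 1.89 FPKM over the 8 libraries, and Col6a4, Col6a5 and Col6a6 were under the filter.

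Col25a1 (ENSMUSG00000058897, chromosome 3, 130131501 to 130599877) encodes a collagen of the neuronal cell membrane that is known for its role in motor axon growth into muscle. It had 13.9, 15.6, 15.0 and 15.3 FPKM in miR-96 KO 1 to 4, against 8.16, 12.3, 13.5 and 16.0 FPKM in WT 1 to 4. The KO libraries lay within 2 FPKM of each other and above 3 of the WT libraries, but WT 4 was the highest of all. Its log2 fold change was 0.28 (SE 0.17, limma adjusted p = 0.620). The other membrane collagens tested, Col23a1 and Col13a1, which is known from the neuromuscular junction, had log2 fold changes of 0.011 and 0.097. The multiplexins Col15a1 and Col18a1, basement membrane collagens whose ends can be cut off as endostatin-like fragments, were nearly level, at -0.011 and -0.0020. Col8a2, of the network under corneal endothelium, was at 0.39, Col7a1, of skin anchoring fibrils, at 0.17, and Col26a1, of no firm class, at -0.10, with limma adjusted p of 0.622, 0.780 and 0.853. The 12 collagens under the filter had means between 0.0186 FPKM (Col10a1, of growth plate cartilage) and 0.948 FPKM (Col14a1). Besides those named above they were Col8a1, Col9a1, Col17a1 and Col28a1.

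Collagens did not all share 1 order of the 8 libraries. WT 2 was the lowest library for 14 of 32 genes and the highest for 0, against 15.0% and 10.7% of all tested genes. The summed FPKM of all 44 collagens was also lowest in WT 2, at 239, with 281 to 374 in the other libraries. In 13 of 32 genes (40.6%) miR-96 KO 1 was the highest library, against 14.8% of all tested genes. These were Col1a1, Col1a2, Col3a1, Col5a1, Col5a2, Col5a3, Col6a1, Col6a2, Col6a3, Col12a1, Col8a2, Col19a1 and Col4a5, which includes each tested chain of types I, III, V and VI. The median log2 fold change of these 13 was 0.21 with all libraries and 0.025 without miR-96 KO 1. In 10 of 32 genes (31.2%) the 3 lowest libraries were miR-96 KO 3, WT 2 and WT 3, against 5.88% of all tested genes. These were Col11a1, Col11a2, Col2a1, Col24a1, Col27a1, Col16a1, Col7a1, Col4a2, Col5a2 and Col6a1. All of these patterns were picked after the values had been seen, and none follows the genotypes. The tested collagens also had long transcripts, with a median longest transcript of 5794 nt against 3193 nt for all tested genes.

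**Figure D3:**
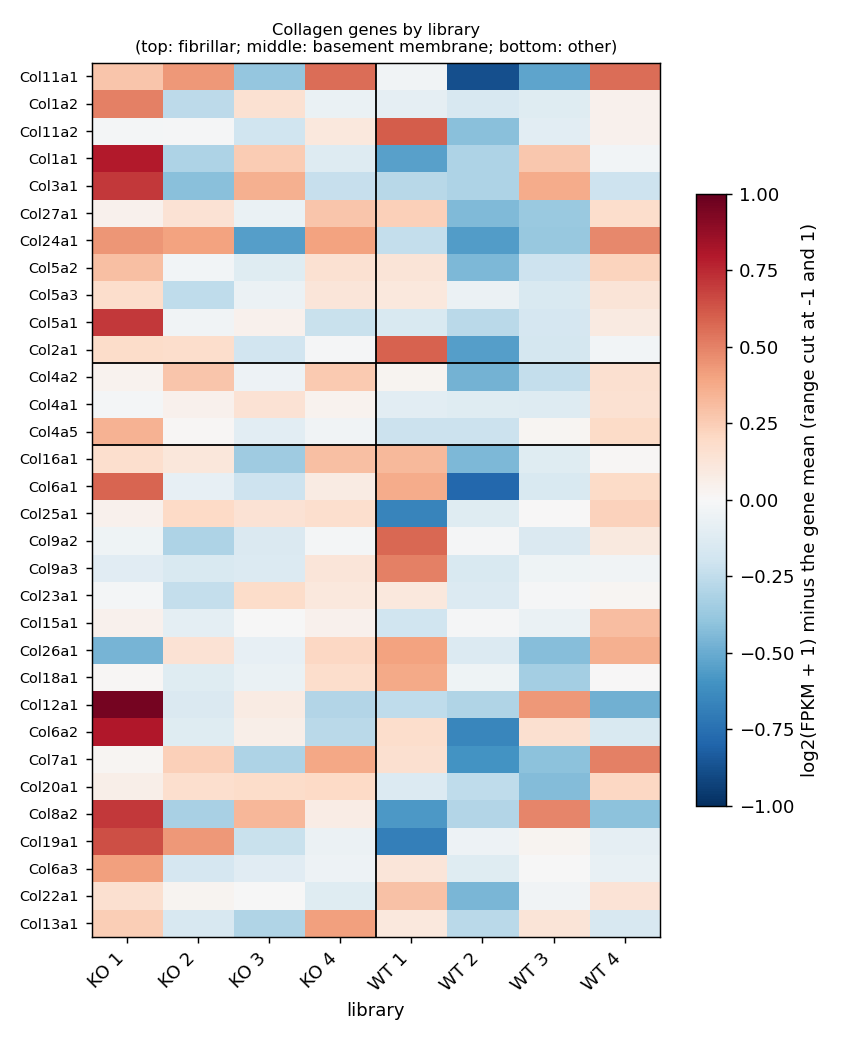
Log2(FPKM + 1) of each tested collagen minus its mean over the 8 libraries, with genes in rows by class and libraries in columns, miR-96 KO at left and WT at right. The column of miR-96 KO 1 is high for types I, III, V and VI, and the columns of miR-96 KO 3, WT 2 and WT 3 are low for types II and XI and Col24a1.

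Markers of meningeal and perivascular fibroblasts were also mostly highest in miR-96 KO 1. Of 13 markers 12 were tested, none passed an unadjusted limma p of 0.05, and 11 were highest in miR-96 KO 1. Their summed FPKM was 323, 122, 221 and 114 in miR-96 KO 1 to 4, against 172, 111, 209 and 127 in WT 1 to 4. The libraries with high sums were miR-96 KO 1, miR-96 KO 3 and WT 3, and both genotypes had low ones. Not all collagens highest in miR-96 KO 1 shared this order. Col5a2 and Col6a1 had miR-96 KO 3 and WT 3 among their 3 lowest libraries. Col4a5, Col6a3 and Col19a1 had miR-96 KO 3 among theirs, and Col1a2, Col5a1 and Col5a3 had WT 3. In Col1a1, Col3a1, Col6a2, Col8a2 and Col12a1 neither library was among the 3 lowest. The 3 most abundant markers were the growth factor Igf2 (38.7 ± 23.6 FPKM in KO, 31.1 ± 12.7 in WT), the matrix calcification inhibitor Mgp (38.3 ± 28.3 in KO, 30.9 ± 15.7 in WT) and decorin, Dcn (31.2 ± 11.3 in KO, 22.5 ± 2.94 in WT; SD, n = 4 each). All 12 had the higher mean in KO with a median log2 fold change of 0.24, but without miR-96 KO 1 these were 4 of 12 and -0.062. The part of these markers in the collagen values was not tested. In bulk tissue, fewer cells of a type and less RNA per cell cannot be told apart.

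**Figure D4:**
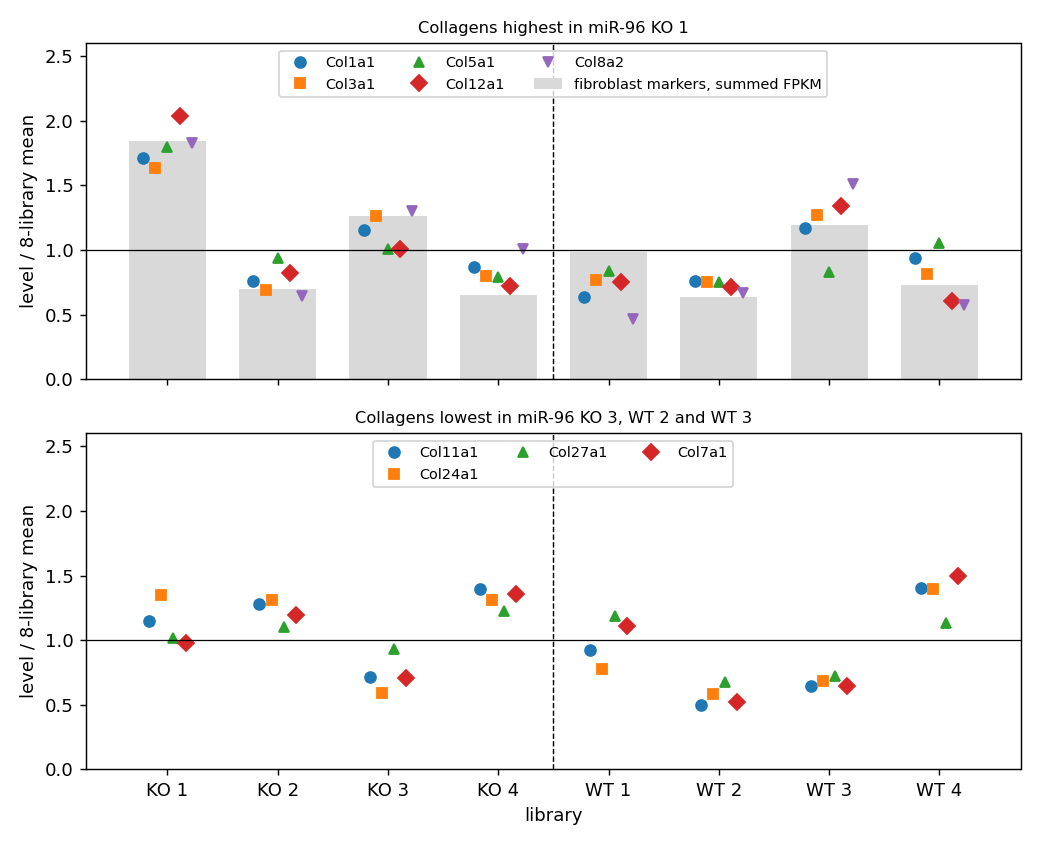
FPKM of single collagens divided by their mean over the 8 libraries, by library, with miR-96 KO (KO 1 to KO 4) at left and WT at right. The upper panel draws 5 of the 13 collagens highest in miR-96 KO 1. Grey bars there show the summed FPKM of 13 fibroblast markers on the same scale. In the lower panel 4 collagens are low in 1 KO and 2 WT libraries.

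Other cell type markers gave these values. The summed FPKM of 8 endothelial markers (led by Ly6c1, Flt1 and Cldn5) was 160.0 to 209 in KO and 184 to 231 in WT. Of these, 1 of 8, Emcn, lower in KO, had an unadjusted limma p under 0.05, against 5.52% of all tested genes. That of 8 mural markers (led by Vtn, Rgs5 and Acta2) was 110.1 to 140.1 in KO and 96 to 153 in WT. Skeletal muscle markers (5, led by Acta1, Tnnt3 and Ckm) summed to 0.790 to 1.69 FPKM in KO and 0.686 to 2.74 in WT. The 5 blood markers (led by Hbb-bs, Hba-a1 and Hba-a2) summed to 17.8 to 39.3 in KO and 5.96 to 199 in WT, with WT 1 highest, which was also the highest library of 8 of 32 collagens, against 30.0% of all tested genes. The 5 liver markers (led by Alb, Apoa1 and Hpx) summed to 25.1 to 48.7 in KO and 1.28 to 9.95 in WT. Of these, 5 of 5 had all KO libraries above all WT libraries, against 1.91% of all tested genes. Each of the 5 also had an unadjusted limma p under 0.05, against 5.52% of all tested genes. None of them passed a limma adjusted p of 0.05, the lowest being 0.159. No marker of these lists was at 0 in all libraries, and the part of these cells in the collagen values was not tested.

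Chains of 1 trimer were set against each other within each library, where overall differences in RNA input drop out. The type I trimer takes 2 chains from Col1a1 and 1 from Col1a2, yet the Col1a1 transcript was the lower one per length. The Col1a1 to Col1a2 ratio of FPKM was 0.512 ± 0.0671 in KO and 0.469 ± 0.128 in WT (SD, n = 4 each), a log2 difference of 0.16 (exact two-sided permutation test, p = 0.486, adjusted over 4 ratios 0.648). The Col4a1 to Col4a2 ratio was 0.801 ± 0.120 in KO and 0.899 ± 0.134 in WT, a log2 difference of -0.17 (exact permutation p = 0.286, adjusted 0.648). In WT 2 alone Col4a1 was above Col4a2, at a ratio of 1.08, and the other 7 libraries ran from 0.711 to 0.967. The Col6a1 to Col6a2 ratio was 3.57 ± 0.943 in KO and 3.77 ± 0.803 in WT, a log2 difference of -0.086 (exact permutation p = 0.771, adjusted 0.771). The Col3a1 to Col1a1 ratio, between types, was 0.644 ± 0.0559 in KO and 0.691 ± 0.0980 in WT, a log2 difference of -0.096 (exact permutation p = 0.486, adjusted 0.648). With 4 libraries against 4 the smallest p this test can give is 0.0286.

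Genes that work on collagens were read from the same fit, and none of 53 tested (of 68 listed) passed a limma adjusted p of 0.05. At an unadjusted limma p under 0.05 there were 2, Plod1 and Lamb2, which is 3.77% of them against 5.52% of all tested genes. Without miR-96 KO 1 there were 0, against 2.16% of all tested genes, and without WT 4 there were 5 (9.43%, against 20.9%). The mean was higher in KO for 34 of 53 (64.2%, against 53.1% of all tested genes). Of the enzymes and chaperones that modify, fold and export collagen chains in the cell, 19 of 20 were tested and 11 were higher in KO. Plod1, a lysyl hydroxylase, had 45.1, 38.6, 37.8 and 43.4 FPKM in miR-96 KO 1 to 4, against 30.8, 35.3, 37.9 and 37.3 FPKM in WT 1 to 4. The groups touched only at miR-96 KO 3 and WT 3, and the log2 fold change was 0.22 (SE 0.097, limma adjusted p = 0.620). Crtap, part of the prolyl 3-hydroxylase complex, was at -0.21, and Mia3, which loads collagen into export carriers, at 0.26. Of the enzymes that trim and cross-link collagen outside the cell 9 of 13 were tested and 4 were higher in KO. The lowest p in that list belonged to the procollagen protease Adamts3 (0.39), the collagen-binding protein Sparc (-0.13) and the protease enhancer Pcolce (0.25). Of the collagen receptors 6 of 10 were tested and 5 were higher in KO, among them the receptor kinase Ddr2 (0.38) and the integrin chain Itgb1 (0.16), while Ddr1 was at -0.078. Of the collagen-degrading proteases and their inhibitors 8 of 10 were tested and 3 were higher in KO, and the inhibitors Timp1, Timp3 and Timp4 were at 0.50, 0.37 and -0.21. None of these 3 lists held a gene with an unadjusted limma p under 0.05.

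The partners of type IV collagen in basement membranes are laminins, nidogens, perlecan and agrin. Of 15 listed 11 were tested, and all 11 had the higher mean in KO, with log2 fold changes of 0.079 to 0.34 and a median of 0.22. WT 1 was the lowest library for 7 of the 11 and WT 3 for the other 4, against 32.0% and 5.15% of all tested genes. Without miR-96 KO 1 the median was 0.16 with 11 of 11 higher in KO, and without WT 1 it was 0.16 with 10 of 11. Without both it was 0.12 with 10 of 11, and without WT 3 it was 0.19 with 10 of 11. Lamb2, a laminin chain of vessel and synaptic basement membranes, had 55.1, 43.1, 46.4 and 45.5 FPKM in miR-96 KO 1 to 4, against 40.9, 39.0, 37.2 and 44.1 FPKM in WT 1 to 4. The groups overlapped only through WT 4 and miR-96 KO 2, and the log2 fold change was 0.23 (SE 0.097, limma adjusted p = 0.620). The laminin chain Lamb3 was at 0.34 and the linker Nid1 at 0.33, both with a limma adjusted p of 0.620. Genes of such a list share the same 8 libraries, so the count of higher means is a description and not a test.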

How the data were processed

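Per the labels' protocols, total RNA was extracted with Trizol, and polyA libraries were made with a NEBNext Ultra kit. HISAT2, SAMtools and Cufflinks are listed, per the submitters' processing notes; no version, option or strand setting is given in the sources used here. FPKM values per gene, as the authors deposited them, are scaled to transcript length and library total and are not counts, so depth was estimated from the steps of low values in genes with 1 transcript of at least 3000 nt, assuming fragments of 200 nt. The depth taken for each library was the one that put the largest share of those values within 0.15 of a whole number. That share was 98.0% to 99.0%, where chance gives 30% for a depth that is not fitted. Being a fitted maximum, it does not check the estimate. The notes list mm8, but 45128 deposited loci equal the GRCm38 annotation, which is used here. Of 49585 gene identifiers 49326 had a symbol.

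Log2(FPKM + 1) was fitted with limma 3.58.1 in R 4.3.3 (trend and robust options, two-sided) over 15061 genes with a mean of at least 1 FPKM, with Benjamini-Hochberg adjustment over all of them, and tested on simulated data. Alternatives were a pseudocount of 0.1, other filters, rescaling, quantile normalization, removal of a length trend, library weights, a replicate block and leaving out libraries. Values in every library are given for the 4 most abundant collagens of each class that were tested (3 of the basement membrane class), and up to 3 companion genes of lowest p and the 3 most abundant markers are named per list (some marker lists are not reported here); Col3a1, Col20a1, Plod1 and Lamb2 were given in full after their values were seen. The collagens and all lists were chosen with earlier results of these data known.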

Additional observations from a re-analysis of the deposited data

Results flagged for a closer look

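Within-genotype spread was examined in 78 groups of 4 libraries, and 5 had 1 library farther from the rest than Dixon's 95% criterion; chance gives about 1 in 20, or 3.90. Col24a1 was at 3.43 FPKM in miR-96 KO 3, against 7.56 to 7.81 FPKM in the other KO libraries. Col3a1 was at 10.9 FPKM in WT 3, with 6.45 to 6.98 FPKM in the other WT libraries. Col4a1 was at 24.2 FPKM in WT 4, with 19.7 to 20.1 FPKM in the other WT libraries. Col9a3 was at 13.0 FPKM in miR-96 KO 4 (10.6 to 10.9 FPKM in the other KO libraries) and at 17.3 FPKM in WT 1 (10.6 to 11.6 FPKM in the other WT libraries).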

How the results depend on the processing

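The count of collagens at adjusted p under 0.05 stayed at 0 in 17 of 18 alternatives and was 5 with estimated library weights (Col11a1, Col4a2, Col20a1, Col24a1 and Col27a1, limma adjusted p of 0.0389 to 0.0488, each with a larger fold change than without weights). Those weights ran from 0.153 (WT 1) to 5.09 (WT 3). They also gave 10 collagens at unadjusted p under 0.05, 1627 and 5014 of all genes at adjusted and unadjusted p under 0.05, and 4 and 18 companion genes; the cause was not tested. Collagens at unadjusted p under 0.05 were 1 without trend and robust options (Col20a1), and collagens with a higher mean in KO were 13 at a mean of at least 5 FPKM, where fewer genes are tested. Companion genes at unadjusted p under 0.05 were 1 without a filter and 1 without trend and robust options. All genes at unadjusted p under 0.05 were 1396 without a filter. With miR-96 KO 1 and WT 1 both left out, chosen after seeing the data, all genes gave 1 adjusted and 338 unadjusted calls and companion genes 0 unadjusted. Leaving out 1 library at a time gave 0 to 1 adjusted and 325 (without miR-96 KO 1) to 3151 (without WT 4) unadjusted calls over all genes, 0 to 5 unadjusted collagens, 0 (without miR-96 KO 1) to 5 (without WT 4) unadjusted companion genes and 19 to 30 collagens higher in KO, with medians of 0.052 to 0.27 (fibrillar), 0.078 to 0.19 (basement membrane) and -0.0090 to 0.23 (other).

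A replicate block on library numbers gave 0 collagens and 1 companion gene at unadjusted p under 0.05 and 790 of all genes, with 0 adjusted calls. Same-numbered libraries deviated together with r of -0.108, -0.0551, 0.0241 and 0.144, so the numbers were not taken as pairs.

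Fold changes turned sign in 54 of 563 recomputed values, over 19 of 32 collagens. With weights these were Col11a2 0.11, Col12a1 -0.13, Col13a1 -0.017, Col15a1 0.013, Col18a1 0.23, Col1a1 -0.092, Col23a1 -0.043, Col26a1 0.29, Col3a1 -0.24, Col5a3 0.061 and Col8a2 -0.21. With both libraries left out they were Col11a2 0.12, Col18a1 0.12, Col1a1 -0.043, Col26a1 0.15, Col3a1 -0.051, Col4a5 -0.042, Col6a3 -0.048 and Col9a3 0.019. Quantile normalization gave Col13a1 -0.014, Col22a1 -0.040, Col23a1 -0.030 and Col6a3 -0.042, removal of the length trend Col15a1 0.017, Col22a1 -0.017, Col23a1 -0.026 and Col6a3 -0.016, and a pseudocount of 0.1 Col18a1 0.0012. Over single libraries left out, the values ran from -0.21 to 0.13 (Col11a2), -0.024 to 0.21 (Col13a1), -0.081 to 0.090 (Col15a1), -0.016 to 0.25 (Col16a1), -0.11 to 0.12 (Col18a1), -0.12 to 0.14 (Col22a1), -0.048 to 0.093 (Col23a1), -0.26 to 0.037 (Col26a1), -0.090 to 0.29 (Col2a1), -0.068 to 0.073 (Col5a3), -0.043 to 0.34 (Col6a1), -0.094 to 0.098 (Col6a3), -0.0020 to 0.37 (Col7a1) and -0.21 to 0.0063 (Col9a3). The log2 ratio difference ran from -0.24 to 0.027 for Col6a1 to Col6a2, 0.015 to 0.32 for Col1a1 to Col1a2, -0.26 to -0.072 for Col4a1 to Col4a2 and -0.18 to -0.018 for Col3a1 to Col1a1. Depth sets a limit for Col10a1, at 0 to 3.93 estimated fragments per library. Strand use in counting is not given, so Col9a3 (6.07% of its exons overlap Tcfl5 on the other strand) is uncertain to that extent.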
